A study of Homo sapiens with 13 samples.

Results

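Sharp falls of replication strand polarity in untreated PC9 cells, the places where the balance of DNA ends swung most abruptly from one strand to the other, were followed through osimertinib treatment and into 2 resistant lines. They were chosen by the mean untreated polarity of 3 libraries in non-overlapping windows of 20 kb on chromosomes 1 to 22. At each window boundary the step was the mean of the 3 windows to the right minus the mean of the 3 to the left, and a boundary was kept where the step was -60 points or lower and was the lowest within 5 windows on either side. This left 698 falls among 129259 boundaries with an untreated step. The mirror-image rule, a step of 60 points or higher, gave 2297 rises.

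The libraries were made by TrAEL-seq, which tags free 3′ ends of genomic DNA, from PC9, an established human lung adenocarcinoma line that depends on mutant EGFR. Osimertinib is an inhibitor of that receptor and was given at 500 nM. There were 3 libraries of growing untreated cells, 2 each after 7 and 14 days of drug, 4 after 28 days, and 1 from each of the resistant lines 5 and 10. Each resistant line came from a single-cell clone selected and kept in osimertinib and was growing when taken, whereas the 28-day cultures were not proliferating, per the series' design text. Day 28 replicates 3 and 4 carry a treatment label of 7 days and were placed by their titles. Nothing in the labels ties the replicates to independent cultures, and the p-values therefore cover only variation among these libraries, some of which may be technical.

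During replication, forks leave an origin in both directions and move until they meet a fork coming the other way, and the meeting places are termination zones. Termination in human cells is usually spread over broad intervals between origins, while initiation is concentrated in zones that often flank active genes. In polarity profiles initiation therefore appears as a steep change of one sign and termination as a gentler change of the other. The sources used here do not state which strand counts as positive. The label of termination zones holds if positive polarity marks rightward forks, and the opposite sign would exchange falls and rises. The falls were rarer than the rises at every threshold tried: 1528 against 3116 at 50 points, 233 against 1637 at 70 and 12 against 669 at 90. Polarity is an average over cells, so a smaller share of replicating cells and forks that meet at less uniform places cannot be told apart in it.

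Most falls lay inside genes, and 4 promoters of host genes from the 10 steepest falls show the range of gene starts facing them. MGMT, FER and ZNF438 were picked because the untreated profile rose across their starts, and ZNF678 because it held the steepest fall while its start had little rise; the choice was made after the values were seen. Each sequence is the 250 bases before the start of the gene's transcript in the RefSeq promoter table (GRCh38.p14), 5′ to 3′ on the gene's strand, with every CG dinucleotide in capitals. They lie at chr10:129466991-129467240 (plus strand) for MGMT, chr5:108747647-108747896 (plus) for FER, chr10:31031866-31032115 (minus) for ZNF438 and chr1:227563306-227563555 (plus) for ZNF678.
MGMT: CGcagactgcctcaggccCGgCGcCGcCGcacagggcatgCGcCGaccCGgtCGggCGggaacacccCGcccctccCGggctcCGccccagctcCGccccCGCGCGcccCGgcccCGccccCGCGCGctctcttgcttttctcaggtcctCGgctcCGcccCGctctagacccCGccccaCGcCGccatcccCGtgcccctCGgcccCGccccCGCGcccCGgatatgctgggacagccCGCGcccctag
FER: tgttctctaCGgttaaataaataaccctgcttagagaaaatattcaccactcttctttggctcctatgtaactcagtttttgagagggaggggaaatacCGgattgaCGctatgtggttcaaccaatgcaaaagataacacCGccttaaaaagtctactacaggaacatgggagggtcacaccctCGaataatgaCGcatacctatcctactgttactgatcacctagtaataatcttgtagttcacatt
ZNF438: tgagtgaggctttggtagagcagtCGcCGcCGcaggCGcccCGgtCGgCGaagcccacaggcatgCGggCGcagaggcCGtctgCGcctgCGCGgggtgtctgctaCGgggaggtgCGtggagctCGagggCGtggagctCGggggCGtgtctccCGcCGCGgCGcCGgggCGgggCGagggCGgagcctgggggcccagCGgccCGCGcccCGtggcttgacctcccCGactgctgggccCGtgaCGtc
ZNF678: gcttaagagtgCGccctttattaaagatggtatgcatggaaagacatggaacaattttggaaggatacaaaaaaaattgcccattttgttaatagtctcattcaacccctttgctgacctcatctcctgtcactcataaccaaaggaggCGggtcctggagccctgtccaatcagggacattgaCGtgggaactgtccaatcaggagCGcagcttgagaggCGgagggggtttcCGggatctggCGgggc
The MGMT and ZNF438 promoters hold 36 and 34 CG dinucleotides, and those of FER and ZNF678 hold 6 and 7. A CG was present in 99.0% of the 485 host-gene promoters found in the RefSeq promoter table (of 580 falls in a gene) and in 96.9% of 15101 promoters of protein-coding genes. The host promoters had a median of 23 CG and all promoters a median of 17, and 75.7% against 57.7% held 15 or more. Among genes of 100 to 300 kb the share was 75.3% in 292 genes that were the longest over a fall and 64.7% in the other 1750. These shares are descriptions of the letters in these windows.

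In the untreated profile the falls were nearly symmetric in their median levels, but single falls could be lopsided. The mean level of the 3 windows to the left had a median of 33.9% and that of the 3 to the right -36.5%, and the step had a median of -66.8 points, with the 10th percentile at -78.6 and the 90th at -61.2. The level on the left had quartiles of 18.4% and 47.6%, and that on the right -49.3% and -22.8%. In PPP1R12B the level went from 63.5% to 1.01%, and in DOCK9 from -9.77% to -72.1%. These values chose the falls and carry no test. The steps of the 3 untreated libraries at a fall had a median SD of 16.6 points. The members just inside the threshold lay in CCDC144A, EFNA5 and ASCC1, with steps of -60.012, -60.016 and -60.064 points. The boundaries just outside lay in IFT88 and near TUSC1 and KRTAP9-9, with -59.996, -59.991 and -59.973 points. Averaged over all falls, polarity peaked at 47.0% 50 kb to the left and reached -48.6% 50 kb to the right. It had crossed to -10.3% by 590 kb to the left and 11.2% by 590 kb to the right. A median of 2000 kb separated neighbouring falls, and the nearest mirror-image rise was a median of 320 kb away on the left and 300 kb on the right.

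**Figure D1:**
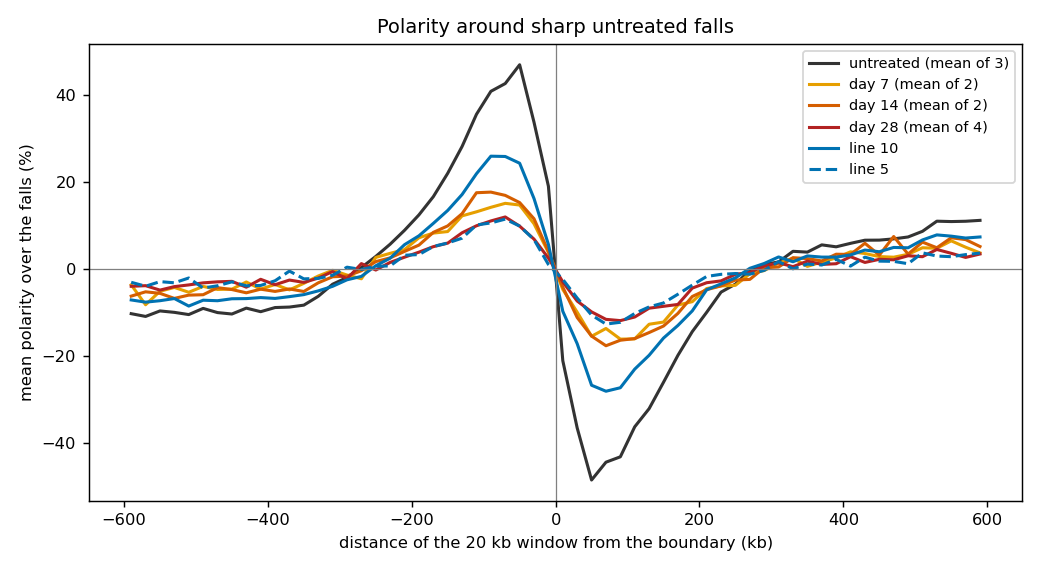
Mean polarity (%) in 20 kb windows against distance from the boundary (kb), averaged over the 698 falls, with 1 line per group mean and 1 for each resistant line. The untreated line swings from 47.0% to -48.6% across the boundary, line 10 from 25.9% to -28.2%, and line 5 and the day 28 mean by much less.

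The falls sat mainly in the central stretch of genes. A protein-coding gene covered 580 of 698 falls (83.1%, 95% exact binomial interval 80.1% to 85.8%, counting error only), against 45.5% of all boundaries and 22.8% of rises. The host gene had a median length of 168 kb, with quartiles of 110 and 261 kb, where all boundaries in genes had a median of 178 kb and wider quartiles of 73.5 and 426 kb. Genes over 500 kb held 4.73% of falls and 9.38% of all boundaries, and 50.4% of falls lay in genes of 100 to 300 kb, against 14.9% of all boundaries and 6.01% of rises. Along the direction of transcription the fall lay at a median of 56.1% of the gene in the 485 hosts with a known strand, and 78.8% lay between 25% and 75% of its length, against 50.0% of all boundaries in such genes. The fall was nearer to the 3′ end in 307 of 485 hosts (63.3%), compared with 49.8% of all boundaries. A gene end lay within 20 kb of 19.8% of falls, 29.6% of all boundaries and 63.5% of rises.

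The share of genes holding a fall was highest between 200 and 300 kb and lower on both sides. It was 0.328% of genes under 50 kb, 2.82% at 50 to 100 kb, 10.8% at 100 to 150 kb, 17.1% at 150 to 200 kb, 19.1% at 200 to 300 kb, 18.6% at 300 to 500 kb and 10.9% above 500 kb. In all, 592 of 19126 genes held a fall, each of them exactly 1. By chromosome, falls were densest on chromosomes 22, 19 and 17, with 9.23, 9.21 and 8.23 per 1000 boundaries, and sparsest on chromosomes 5 and 8, with 3.33 and 3.34. The median number of genes within 500 kb was 9 at falls, 5 at all boundaries and 8 at rises. Windows need a value to be tested, so regions without values count nowhere in these shares.

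Turned to the direction of transcription, genes with a fall showed one profile from start to end. In 292 host genes of 100 to 300 kb, untreated polarity was 61.2% in the first 10% of the gene, 0.83% just past its middle and -53.9% in the last 10%. It rose from -7.70% at 95 kb before the start and returned to -7.00% at 95 kb past the end. In the drug-exposed libraries, which did not choose the falls, the same stretches went from 37.8% to -34.5% in line 10, from 13.6% to -14.0% in line 5 and from 14.5% to -14.1% in the day 28 mean. The 1746 genes of that length without a fall were flatter in untreated cells, as the choice of genes requires, going from 27.5% to -9.83%. They showed a swing of the same direction in the drug-exposed libraries. It went from 18.8% to -8.69% in line 10, from 7.06% to -3.94% in line 5 and from 6.72% to -1.86% in the day 28 mean. An untreated rise lay within 60 kb of the 5′ end in 41.9% of 296 genes with a fall and in 27.4% of 1746 genes without one. Within 60 kb of the 3′ end the shares were 23.99% and 14.3%. Rises and falls were called from the same untreated mean, so the choice of genes can itself set part of these differences, which carry no test.

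**Figure D2:**
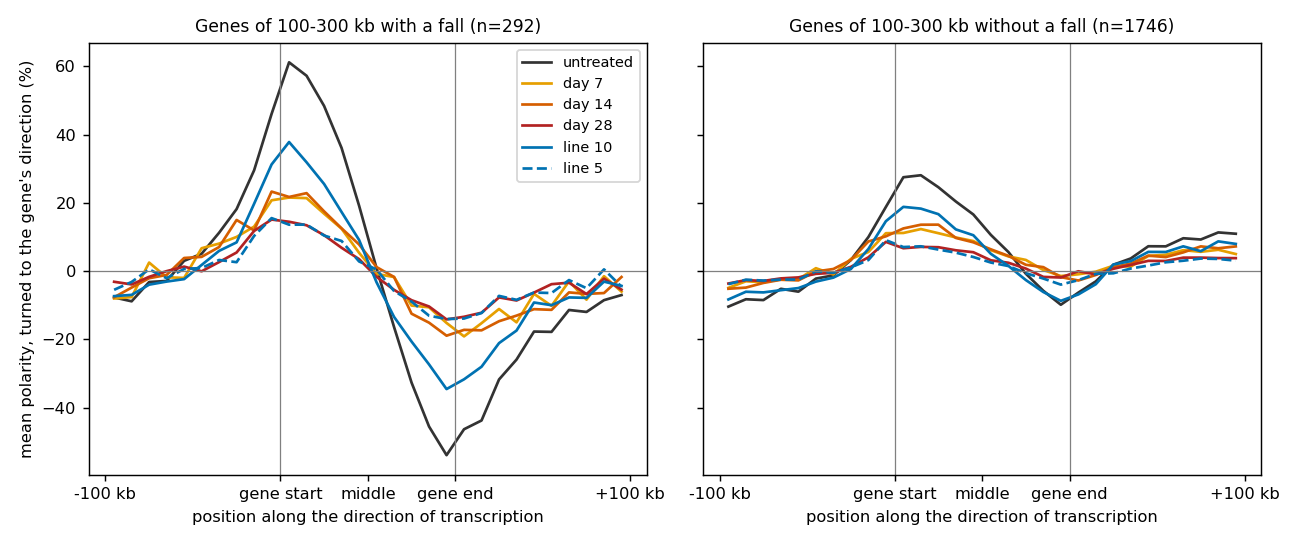
Mean polarity (%), turned to the direction of transcription, in steps of 10% of the gene body and over 100 kb on either side, for genes of 100 to 300 kb with a fall (left) and without (right); lines are group means, and single libraries for lines 5 and 10. With a fall, untreated polarity starts at 61.2% and ends at -53.9%, and line 10 follows the same course at a lower height.

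The steps at gene starts in the 10 drug-exposed libraries, which chose nothing, were higher in genes with a fall in 6 libraries and lower in 4. In line 10 the mean step at the 5′ end was 17.4 points in 296 genes with a fall and 14.3 in 1729 without, and in line 5 it was 6.22 against 4.50. In day 14 replicate 1 it was -0.02 against 5.45, the widest gap in the other direction. Over the 10 libraries the mean at the 5′ end ran from -0.02 to 17.4 points with a fall and from 2.82 to 14.3 without. At the 3′ end it ran from -8.75, in day 7 replicate 1 with 105 genes measured, to 3.61 with a fall, and from -0.68 to 4.21 without.

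The falls were shallower in each of the 8 osimertinib libraries than in any untreated library. The difference did not pass adjustment, which no values could have passed with these numbers of libraries. To measure untreated libraries apart from the choice of falls, each was read at falls called from the mean of the other 2 (637 to 1212 falls a pair), and the other libraries were read at the falls of each pair and averaged. The mean step was then -55.4, -61.3 and -44.1 points in untreated replicates 1 to 3. It was -23.0 and -14.0 at day 7, -12.3 and -28.1 at day 14, and -8.09, -9.30, -18.6 and -14.2 at day 28. The untreated mean was -53.6 ± 8.72 points (SD, n = 3) and the osimertinib mean -16.0 ± 6.89 (SD, n = 8), which is 29.8% of it. The exact permutation test (two-sided) gave p = 0.0121, the smallest that 3 against 8 libraries allow, and 0.145 after Benjamini-Hochberg adjustment over 24 comparisons. Without day 28 replicates 3 and 4 the difference was 37.8 points instead of 37.6.

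The 2 libraries of day 7 averaged -18.5 ± 6.35 points (SD). Those of day 14 averaged -20.2 ± 11.2, also over 2, and the 4 of day 28 averaged -12.6 ± 4.83. Day 28 against untreated gave an exact permutation p = 0.0571, the smallest possible, and an adjusted 0.229. At the falls called from all 3 untreated libraries, day 28 averaged -13.1 ± 5.30 points (SD, n = 4) and days 7 and 14 together -20.6 ± 8.03 (SD, n = 4). The ranges overlapped, and the exact permutation p was 0.2 (adjusted 0.3). Without day 28 replicates 3 and 4, whose labels conflict, day 28 differed from untreated by 44.9 points instead of 41.0 and from days 7 and 14 by 11.7 instead of 7.52. None of the 24 comparisons passed adjustment.

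The 2 resistant lines gave different values. Line 10 had a mean step of -30.9 points, 57.6% of the untreated mean, and line 5 had -12.2 points, 22.7% of it. Line 10 was thus lower than every osimertinib library of the parental line, and line 5 lay within their range. Their mean, -21.5 ± 13.2 points (SD, n = 2), did not overlap the untreated values (exact permutation p = 0.2, the smallest possible, adjusted 0.3). Against the osimertinib libraries at falls called from all untreated libraries the lines averaged -22.9 ± 14.7 (SD, n = 2) against -16.8 ± 7.47 points (SD, n = 8; exact permutation p = 0.4, adjusted 0.457). Without line 10 that difference turned from -6.03 to 4.39 points.

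**Figure D3:**
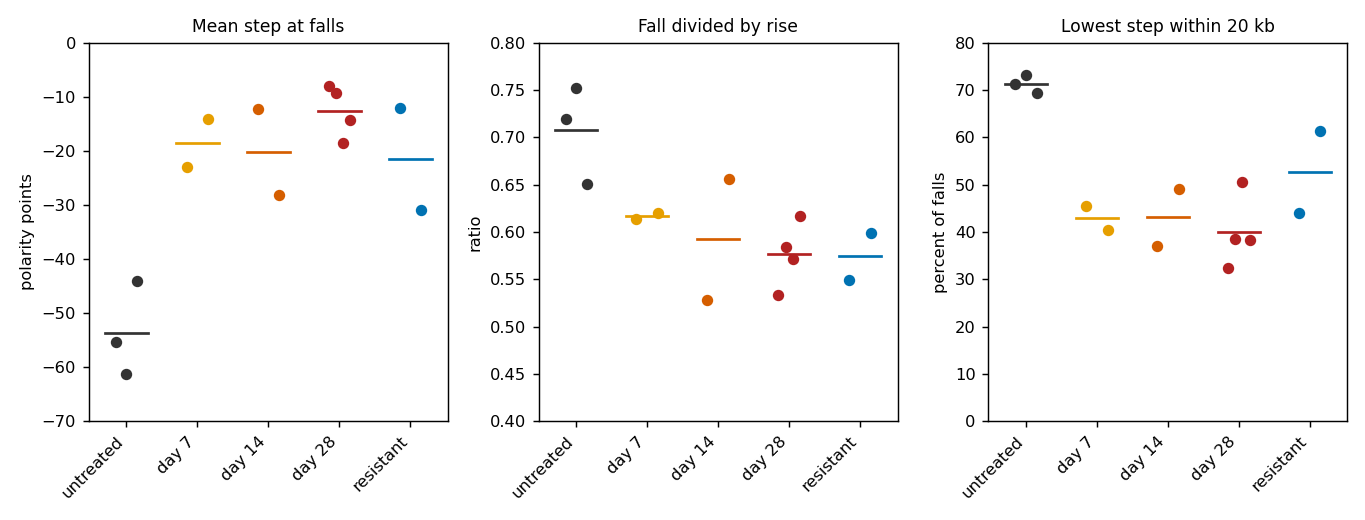
Each point is 1 library and each horizontal line a group mean (the resistant group is lines 5 and 10), for the mean step at held-out falls (polarity points), the ratio of the mean fall to the mean rise, and the percent of falls whose lowest step lay within 20 kb of the called boundary. Untreated steps lie between -61.3 and -44.1 and osimertinib steps between -28.1 and -8.09; the ratio axis does not start at 0.

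The rises kept a larger share of their untreated size than the falls in the osimertinib mean and in both lines. The mean rise at the mirror-image boundaries was 75.4 ± 7.00 points (SD, n = 3) in untreated and 26.6 ± 10.0 (SD, n = 8) in osimertinib libraries, so 35.3% of the rise and 29.8% of the fall were kept. In line 10 the shares were 68.3% and 57.6%, and in line 5 29.3% and 22.7%. The ratio of fall to rise within a library was 0.719, 0.752 and 0.651 in untreated replicates 1 to 3. It ran from 0.528 to 0.656 over the 8 osimertinib libraries and was 0.549 and 0.599 in lines 5 and 10. The means were 0.708 ± 0.0516 (SD, n = 3) and 0.590 ± 0.0448 (SD, n = 8; exact permutation p = 0.0242, adjusted 0.194), and the ranges overlapped at 1 library, day 14 replicate 2. At day 28 the ratio was 0.576 ± 0.0345 (SD, n = 4), below every untreated value (exact permutation p = 0.0571, adjusted 0.229).

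The position of the falls was also compared. In untreated libraries the lowest step within 5 windows lay within 1 window of the boundary at 71.2%, 73.2% and 69.4% of falls called without that library. Over the 8 osimertinib libraries the share was 32.4% to 50.5%, with a mean of 41.5% ± 6.28 (SD, n = 8) against 71.3% ± 1.92 (SD, n = 3; exact permutation p = 0.0121, the smallest possible, adjusted 0.145). At the 698 falls it was highest among the osimertinib libraries in day 28 replicate 3, with 52.3%, where all boundaries gave 25.8%. It was lowest in day 28 replicate 1, with 33.2%, close to the 27.8% over all boundaries. Lines 5 and 10 had 43.6% and 63.8%, where all boundaries gave 27.2% and 25.6%. The share at these falls rested on 93 falls in day 7 replicate 1, 380 in day 14 replicate 2 and 392 in day 28 replicate 1. In untreated libraries it rested on 673 to 686. How far the depth of the falls and the noise of the steps set this share was not tested, so a lower share need not mean that falls moved. In the averaged profile the distance from peak to trough was 100 kb in untreated replicates 1 and 2 and 140 kb in replicate 3. It was 140 to 200 kb over the osimertinib libraries, 140 kb in line 5 and 160 kb in line 10. The grid was 20 kb, and the ranges met at 140 kb. The untreated libraries chose the falls through means of 3 windows a side, so the rule itself shapes their peak and trough. The shorter untreated distance is therefore no measure of a change in width.

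At the 698 falls themselves the number with a value varied between libraries, from 176 in day 7 replicate 1 to all of them in 3 drug-exposed libraries. Steps of -30 points or lower were found at 42.6% of 176 falls with a value in day 7 replicate 1 (all boundaries 16.8%) and at 25.5% of 686 in day 7 replicate 2 (10.2%). At day 14 they were found at 26.0% of 546 (13.1%) and 49.6% of 488 (16.6%). At day 28 the shares were 24.04% of 520 (15.2%), 12.7% of 694 (5.56%), 20.6% of 698 (2.31%) and 26.4% of 541 (11.3%). In each of these libraries the share at falls was above that over all boundaries. The SD of the step over all boundaries was 32.6 points in day 7 replicate 1, which had the fewest falls measured, and 16.4 in day 28 replicate 3. Its part in the shares was not tested.

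In lines 5 and 10 all 698 falls had a value. The step was -30 or lower at 68 falls (9.74%) in line 5 and at 428 (61.3%) in line 10, where all boundaries gave 2.84% and 6.74%. It was below 0 at 81.5% of falls in line 5 (50.9% of all boundaries) and at 98.7% in line 10 (54.3%). Among the osimertinib libraries that share was highest in day 28 replicate 3, with 93.6% (53.0%), and lowest in day 28 replicate 1, with 60.6% of 520 (49.9%). Both lines were below 0 at 564 falls (80.8%, against 33.7%), and both were at -30 or lower at 55 (7.88%, against 0.523%). Line 10 alone reached -30 at 373 falls (53.4%, against 6.18%), and line 10 was lower than line 5 at 619 falls (88.7%, against 50.6%). The step was below 0 in all 10 drug-exposed libraries at 15 of the 157 falls with a value in each (9.55%, against 1.47% of such boundaries).

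**Figure D4:**
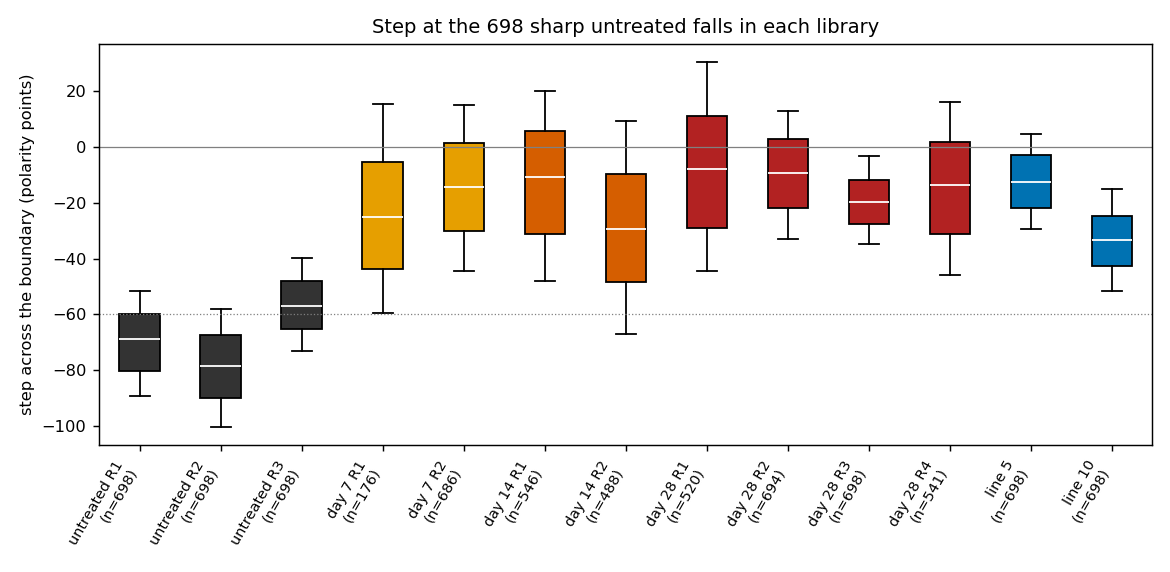
Step (polarity points) at the 698 falls in each library, with the number of falls measured; boxes span the quartiles with the median as a white line, whiskers the 10th to 90th percentiles, and the dotted line marks the threshold of -60. Untreated boxes, which chose the falls, lie lowest, line 10 has a median of -33.2, and line 5 one of -12.7.

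No single fall passed a test across all boundaries. In limma on the steps of the 10 drug-exposed libraries at the 29261 boundaries with a value in each, 0 boundaries (0%) passed an adjusted p of 0.05 in resistant lines against day 28, in resistant lines against all osimertinib libraries (0%) and in day 28 against days 7 and 14 (0%), and so 0 of 157 falls. At an unadjusted p under 0.05 there were 337, 269 and 2124 of the 29261 boundaries, and 2, 2 and 11 of the 157 falls. The falls thus stood close to the share over all boundaries. In both resistant contrasts that share of boundaries was itself below 0.05, so these fits ran conservative and 0 calls say little there. The median difference over the 157 falls was -10.1 points for resistant against day 28, where 129 were lower, and 0.07 over all boundaries. It was -7.21 points for resistant against osimertinib, where 107 were lower, and 7.45 for day 28 against days 7 and 14, where 51 were lower. Without line 10 the first 2 medians were 1.60 and 4.33 points. Over the falls measured in both libraries (167 to 698), the Pearson correlation of steps ran from -0.05 to 0.20 over the 45 pairs of drug-exposed libraries, highest between lines 5 and 10. It ran from -0.04 to 0.23 over the 30 pairs of an untreated with a drug-exposed library, highest between untreated replicate 3 and day 28 replicate 3. These are descriptions over falls of the same cell line, and the untreated steps had chosen the falls.

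The steepest untreated falls lay in ZNF678, MUC3A, RIPPLY2-CYB5R4, MGMT, FER, C1QTNF3, ZNF438, CPNE8 and STOX2, and 1 lay 670 kb from ZNF37A in no protein-coding gene. ZNF678, which encodes a zinc finger protein, spans chr1:227563556-227679669 and is 116 kb long. Its fall, at position 227620000 and 48.6% along the gene, had steps of -103, -123 and -86.9 points in the untreated libraries. The step was -6.52 in day 7 replicate 2, -36.8 and -66.3 at day 14, and -52.8, -23.4, -33.9 and 2.33 at day 28, with no value in day 7 replicate 1. Lines 5 and 10 gave -29.1 and -39.7. No drug-exposed library reached the untreated range, and both lines had a step below 0. The untreated values chose this fall as the steepest, so the gap is set in part by that choice. At every named fall the untreated values had likewise served the choice. The start of the gene had an untreated step of only 10.8 points.

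MGMT encodes the enzyme that removes alkyl groups from guanine in DNA (chr10:129467241-129770983, 304 kb). Its fall at 129640000, 173 kb from the start, had untreated steps of -104, -85.3 and -97.2 points. The step was -55.6 in day 7 replicate 2 and -12.3 and -48.6 in day 28 replicates 2 and 3, the other osimertinib libraries having no value. It was 9.39 in line 5 and -25.0 in line 10. The CG-rich start printed above had steps of 124, 153 and 136 points untreated, 62.8 in day 28 replicate 3, 27.2 in line 5 and 82.1 in line 10. It was 27.4 in day 7 replicate 2 and -10.9 in day 28 replicate 2. The step at the start was thus above 0 in both lines, and that at the fall was above 0 in line 5.

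FER, a non-receptor tyrosine kinase gene of 449 kb (chr5:108747897-109196841), has a promoter poor in CG and a steep untreated rise at its start, of 98.6, 118 and 100.3 points. Its fall at 109040000 had untreated steps of -94.4, -112 and -80.5. Over the 6 osimertinib libraries with a value the fall ran from -18.6 to 30.6 with a median of -0.25, and lines 5 and 10 gave 7.31 and -43.5. At the start the same gene gave 4.47 to 124 points over the 8 osimertinib libraries, 32.5 in line 5 and 99.0 in line 10. Line 10 was the lowest of the drug-exposed libraries at the fall.

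ZNF438, another zinc finger gene (chr10:30844632-31032411, minus strand), had its fall at 30940000, 49.2% along the gene. The untreated steps were -108, -83.4 and -89.9 points. Over 7 osimertinib libraries they ran from -60.9 to 16.3 with a median of -28.5, and lines 5 and 10 gave -4.92 and -49.7. CPNE8, which encodes a calcium-dependent membrane-binding copine, had -87.8, -110.5 and -77.6 points untreated, a median of -34.2 over 6 osimertinib libraries and -6.48 and -31.3 in lines 5 and 10. At the fall in the membrane mucin gene MUC3A, line 5 gave -9.67 and line 10 -55.6. Of the 10 steepest falls, line 10 was lower than line 5 at all but that in RIPPLY2-CYB5R4, where the values were -32.2 and -34.7.

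**Figure D5:**
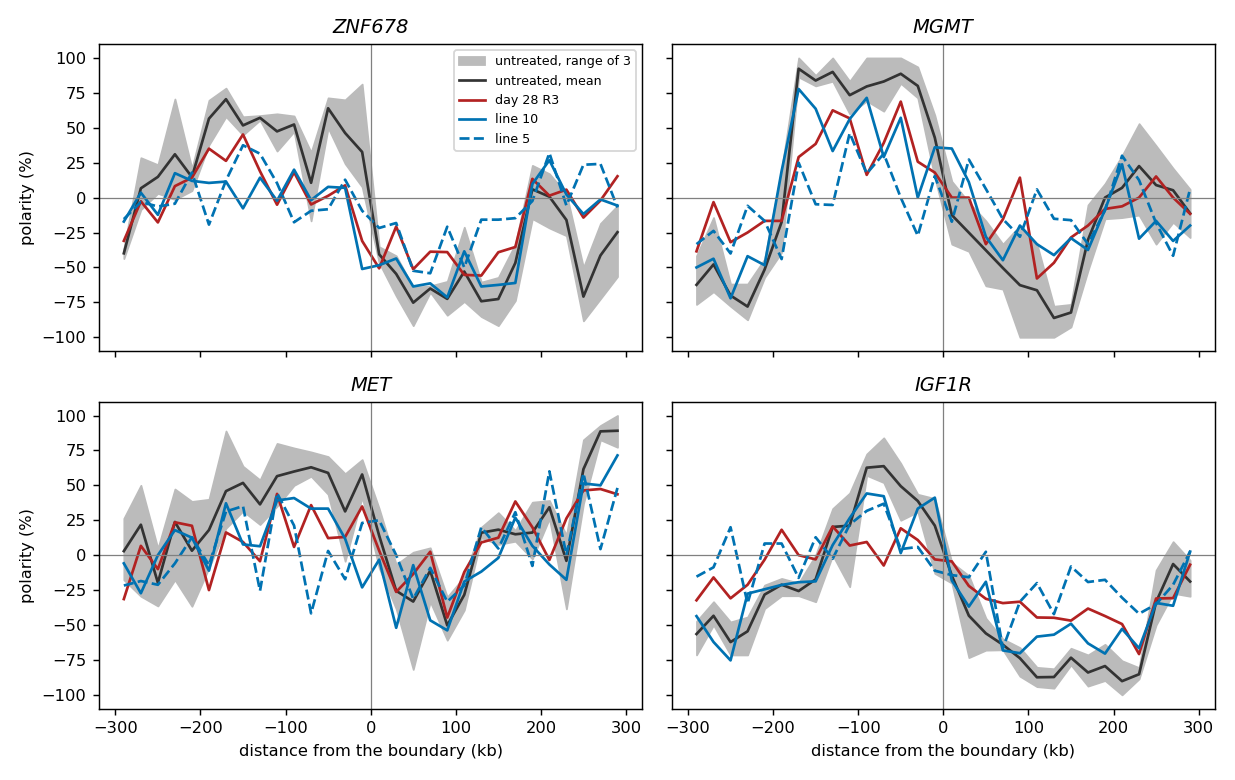
Polarity (%) in 20 kb windows against distance from the boundary (kb) at the falls in ZNF678, MGMT, MET and IGF1R; the grey band spans the 3 untreated libraries and the black line is their mean. In the drug-exposed libraries shown the swing is smaller, and at MGMT line 10 still rises above 50% left of the fall.

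Among the 157 falls with a value in all 8 osimertinib libraries, those with the lowest mean step lay in PLB1, INO80, DALRD3, DOCK9, TSEN54 and ETV6 and near CDC42EP3 and SCGB1D2. In 6 of these 8 the library values ranged from deep falls to above 0. In PLB1, a phospholipase gene, the step was -63.4 and -4.35 at day 7, -50.8 and -58.3 at day 14, and -87.1, 10.52, -35.8 and -66.9 at day 28, a mean of -44.5 ± 33.0 points (SD, n = 8) against untreated steps of -70.4, -59.2 and -53.9. INO80, the ATPase of a chromatin remodeller, ran from -98.9 to 6.59 with a median of -35.6. Steps were below 0 in all 8 libraries only at DALRD3 and near SCGB1D2 among these. DALRD3, which lies among 34 genes within 500 kb, gave -61.9 and -41.7 at day 7, -53.0 and -18.0 at day 14, and -33.5, -26.0, -40.8 and -18.5 at day 28, a mean of -36.7 ± 15.8 (SD, n = 8) against -84.5, -74.1 and -58.5 untreated. The fall 2.24 kb from SCGB1D2, a secretoglobin gene, averaged -33.3 ± 11.7 (SD, n = 8) against -87.9, -90.1 and -64.6 untreated. Lines 5 and 10 gave -29.0 and -29.6 at DALRD3 and -22.9 and -38.4 near SCGB1D2. Day 7 replicate 1 lay within the untreated range at DALRD3, and no drug-exposed library did so near SCGB1D2.

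The 15 falls that were below 0 in all 10 drug-exposed libraries lay in ERI3, SLC22A15, INPP5D, USP40, DALRD3, KCNMB2, DLG1, HIVEP1, CCDC91, MARK3, PCSK6 and RBFOX2 and near SH3PXD2B, SCGB1D2 and CD163. This list was drawn after the values were seen. RBFOX2, which encodes a splicing regulator, ranged from -47.2 to -18.9 points over the 10 libraries, with a mean of -32.3 ± 10.0 (SD, n = 10). CCDC91, a trafficking gene, ranged from -54.8 to -17.3 and INPP5D, an inositol phosphatase gene, from -48.0 to -15.8. KCNMB2, DLG1 and HIVEP1 had values that reached -0.17, -0.82 and -0.91.

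At the other end, the falls with the highest osimertinib means lay in CLASP1, MED27, CLPB, ATF7IP, ELOVL5, HYCC1, CD58 and PRAC2. In CLASP1, which encodes a protein that stabilises microtubule ends, the step was 22.4 and -19.1 at day 7, 33.1 and -34.5 at day 14, and 49.1, 5.50, -0.34 and 3.96 at day 28, a mean of 7.50 ± 27.1 points (SD, n = 8). Its untreated steps were -78.8, -62.0 and -54.5, and lines 5 and 10 gave -30.3 and -27.1. MED27, a subunit of the Mediator complex, averaged 2.66 ± 29.8 (SD, n = 8) under osimertinib and gave -3.59 and -22.6 in the lines. CLPB, a mitochondrial chaperone gene, averaged -0.12 ± 17.5, and ATF7IP, a partner of a histone methyltransferase, -0.44 ± 27.1 (SD, n = 8 each). In ELOVL5, a fatty acid elongase gene, and CD58, an adhesion molecule gene, the values ran from -36.9 to 58.9 and from -36.9 to 29.8. The spread between libraries was larger than the distance of these means from 0. In all 8 of these genes line 10 was below -20. That was common for line 10, whose step over the 698 falls had a median of -33.2 points and a 90th percentile of -14.9.

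By the mean of the 2 resistant lines, the deepest falls were near BSPH1 and in HECTD2, PPP1R12B, LCOR, PHLPP1 and DRC8. Lines 5 and 10 gave -55.5 and -79.6 near BSPH1 on chromosome 19, against -86.0, -75.9 and -106 untreated. In HECTD2, a ubiquitin ligase gene, they gave -74.4 and -55.0, against -69.8, -55.7 and -83.9. Both falls reached the untreated range in at least 1 line; the osimertinib libraries had 1 and 2 values there, -60.4 near BSPH1 and -5.49 and -34.7 in HECTD2. LCOR, a nuclear receptor corepressor, gave -47.8 and -56.4, PHLPP1, a phosphatase acting on AKT, -48.3 and -55.8, and DRC8 -44.5 and -57.8. In PPP1R12B, a myosin phosphatase subunit, the lines stood apart, with -17.5 in line 5 and -91.1 in line 10.

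Falls among the highest in the lines lay in FBXO25 and SEMA3A and near SERPINA9, LOC124902565 and TBX18. Near SERPINA9 lines 5 and 10 gave 30.7 and 0.57 points, against -58.1, -106 and -23.7 untreated. In SEMA3A, which encodes a secreted guidance cue, they gave 21.0 and 2.22, against -100.002, -60.3 and -26.1. At each of these 5 falls line 5 was higher than line 10. The lowest and highest untreated values at SEMA3A and near SERPINA9 were themselves more than 70 points apart.

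The number of genes with a sharp fall was small in each gene list, and the lists were not matched for gene length. It was 3 of 30 genes of the EGFR pathway and its bypass routes (MET, IGF1R and PIK3CA), 2 of 19 common fragile site genes (FHIT and IMMP2L), 1 of 29 replication and licensing genes (ORC1), 1 of 30 persister, mesenchymal and epithelial genes (TEAD1) and 0 of 30 cell cycle and tumour suppressor genes, against 3.10% of all protein-coding genes. The share over all genes is no like-for-like background, because it varied with gene length. FHIT (1504 kb) and IMMP2L (900 kb) belong to the genes above 500 kb, of which 10.9% held a fall. MET, the receptor of hepatocyte growth factor, had untreated steps of -66.1, -79.1 and -47.6 points 22.04% along the gene. The step was -37.2 in day 7 replicate 2, -115 in day 14 replicate 1, 0.31, -32.2 and 1.85 in day 28 replicates 2 to 4, and -5.04 and -28.1 in lines 5 and 10. The lowest of these lay beyond the untreated range and the rest above it.

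IGF1R, the receptor of insulin-like growth factor, had its fall 28.9% along the gene, with -57.6, -97.4 and -68.3 points untreated. Over 7 osimertinib libraries the step ran from -39.4 to 41.2 with a median of -14.0, and lines 5 and 10 gave -8.92 and -50.02. PIK3CA, the catalytic subunit of a lipid kinase, had -75.6, -44.1 and -78.5 untreated, a mean of -16.7 ± 28.5 (SD, n = 8) under osimertinib and 11.3 and -31.6 in the lines. In the fragile site gene FHIT, lines 5 and 10 gave -21.6 and 30.8, the highest value of line 10 at any of the 698 falls, against -46.6, -84.2 and -59.8 untreated. IMMP2L, which encodes a mitochondrial peptidase, gave 15.2 and -31.4.

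ORC1, a subunit of the complex that marks origins, had -62.4, -90.1 and -47.0 points untreated in a gene of 36.7 kb, and 4.11 and -2.13 in lines 5 and 10. Over its 7 osimertinib values the step ran from -69.1 to 41.7 with a median of -18.0. TEAD1, the DNA-binding partner of YAP, had -77.9, -63.5 and -43.3 untreated, a median of -6.01 over 6 osimertinib libraries and -25.0 and -13.3 in the lines. At ORC1, IGF1R, PIK3CA, MET and IMMP2L line 10 was lower than line 5, and at FHIT and TEAD1 it was higher.

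Falls inside and outside genes had close values. Line 10 averaged -32.8 points at the 580 falls in a gene and -35.6 at the 118 outside, and line 5 -12.7 and -11.1. Day 28 replicate 3 averaged -19.8 and -19.8. The mean in genes minus that outside ran from -1.57 to 4.51 points over the 10 drug-exposed libraries, and the falls outside genes were the deeper ones in each library but line 5.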

How the data were processed

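The authors' deposited table holds, for 13 TrAEL-seq libraries, a strand polarity score in percent from -100 to 100 in windows of 20 kb every 10 kb; the scale was read from the values, and neither the sign nor the reads behind a value were stated where looked for, so depth is unknown and polarity has no counting interval or floor here. The submitters' processing notes name Bowtie2 2.4.1, Trim Galore 0.6.5 and, as builds, GRCm38 and GRCh38; chromosome ends in the table equal those of GRCh38. The share of windows with a value ran from 62.6% in day 7 replicate 1 to 93.4% in untreated replicate 3.

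The 143736 full non-overlapping windows of chromosomes 1 to 22 were used, with no scaling. A step needed a value in all 6 windows. The falls, gene lists and rule for named falls were chosen with earlier results of these data known, so no pattern already seen counts as independent support. Named were the 10 lowest untreated steps, the 8 lowest and 8 highest osimertinib means, the 6 lowest and 6 highest means of the lines, those at the threshold and those in listed genes; 1 of these falls is not reported here. Library values were compared by two-sided exact permutation, and steps at all boundaries by limma 3.58.1 (lmFit, eBayes with trend, a value in all 10 libraries, Benjamini-Hochberg at 0.05). Tested on simulated data for resistant lines against day 28, limma called 1 of 100 boundaries with a true change of 40 points and 100 of 100 with a true change of 100 points. Genes, strands and promoters came from RefSeq tables (GRCh38.p14); a host is the longest protein-coding gene over the boundary. Same-numbered libraries of different groups deviated with correlations of -0.05 to 0.06, and differently numbered ones with -0.08 to 0.08. In groups of 2 libraries the deviations mirror each other. This check therefore cannot show whether replicate numbers mark shared cultures, and the main comparisons did not pair libraries. Python 3.11.15, numpy 2.4.6, pandas 2.3.3 and R 4.3.3 were used. Alternatives were the threshold, windows a side, window offset, completeness, median, placing of the libraries with conflicting labels, weights, block and leaving out each library.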

Additional observations from a re-analysis of the deposited data

Results flagged for a closer look

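Of 59 checks, made on the library measures and on named falls, 5 found 1 library far from the others. All 5 were at named falls, and chance gives about 1 in 20 checks. At the fall in ZNF438 day 28 replicate 2 had a step of 16.3 points, and the nearest of the other day 28 libraries -25.7. Day 28 replicate 1 stood high in 3 genes: at CLASP1 it had 49.1 points with the next at 5.50, at ATF7IP 40.4 with the next at -10.7, and at HYCC1 27.1 with the next at -29.8. Near LOC124902565 day 28 replicate 4 had -69.6 points and the next -20.6. At CLASP1, ATF7IP and HYCC1 these values raised osimertinib means that were themselves used to name the gene.

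Chromosome X, which the rule leaves out, held 25 falls by the same rule, or 3.96 per 1000 boundaries. Their mean step was -31.5 points in line 10, -14.5 in line 5 and -16.0 in day 28 replicate 3, each at all 25 falls.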

How the results depend on the processing

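Of 625 alternative values, 608 kept the direction and the side of the threshold. In the permutation comparisons no values could have passed adjustment, so only the direction could turn. The limma counts, 0 throughout, have no direction and were scored as kept. The 608 is therefore no measure of how robust the calls are. The difference in step between osimertinib and untreated libraries ran from 28.4 to 51.8 points, that in ratio from -0.159 to -0.0858 and that in place from -31.1 to -18.1 percentage points. With the replicate block, which pairs libraries by number, the step differed by 39.8, 38.1 and 41.6 points at days 7, 14 and 28. No call could change there either. The limma fits called 0 boundaries under every alternative. The ratio of resistant lines against day 28, 0.00162, turned to -0.0117 and -0.00569 at thresholds of 50 and 70, -0.0725 with 2 windows a side, -0.0111 with windows offset by 10 kb and -0.0164 with 2 of 3 windows required (chosen after seeing the data), and ran from -0.0383 to 0.0415 with single libraries left out. Against osimertinib it turned from -0.0185 to 0.0122 with 5 windows a side and 0.0146 with medians, and ran from -0.0584 to 0.0214 with single libraries left out. Day 28 against days 7 and 14 turned from -0.0402 to 0.00947 with 5 windows a side. The step of resistant lines ran from -16.4 to 4.39 points against osimertinib and from -20.2 to 0.63 against day 28 with single libraries left out, positive only without line 10. The share of falls in a gene was 88.0% with all RefSeq genes and 79.6% at a threshold of 50. The cause of these turns was not tested. Values in few windows limit day 7 replicate 1 most.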
